A study of Mus musculus with 25 samples.

Results

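Immunoglobulin variable (V) segments were examined in 25 melanomas of the mouse line B2905, which carry, beside tumour cells, whatever B cells and plasma cells had entered them. The genes were selected on name and on total count in the deposited table: symbols starting with Ighv (heavy chain), Igkv (kappa light chain) or Iglv (lambda light chain), with at least 10 counts summed over the 25 tumours. This gave 160 of the 348 V rows among 55450 rows of the table, with 83 of 185 heavy, 74 of 160 kappa and all 3 lambda segments. The line was implanted in C57BL/6 mice, which entered treatment once tumours measured 75 mm3 on average. Anti-CTLA-4, which blocks an inhibitory receptor on T cells, had been given to the mice of 20 tumours, and isotype control IgG2b to those of 5, at 10 mg/kg of antibody. According to how size changed over the 10 to 11 days following the final dose, the 20 tumours were labelled as 8 responders (shrinking), 6 stable tumours and 6 non-responders (growing), so these groups were formed by outcome and not assigned. The 5 tumours given IgG2b are called controls. Each library stands for 1 tumour, numbered within its group in the order of the records, and the numbers pair nothing.

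A V segment is 1 of many gene copies that lie side by side in each immunoglobulin locus. A developing B cell joins a single heavy segment to short D and J pieces, and a single light chain segment to a J piece. Each B cell and all its descendants therefore use the same pair. When a B cell multiplies and its descendants become plasma cells, which hold very large amounts of immunoglobulin RNA, the pair it chose becomes abundant in the tissue. In the heavy and kappa names, the number before the dash is the family, a group of similar sequences.

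The members were chosen by their totals over all 25 tumours, and these totals are given as a description. The 160 members held 51830 counts, and the 42 rows that had counts but fell short of the threshold held 0.267% of all V counts, while 146 rows had none. Just inside the threshold stood Igkv4-69 with 10 counts and Ighv5-2 with 11, and just outside it Igkv1-122 with 9.01 and Ighv1-13 with 9 counts. The annotation had no part in the choice. It lists 216 of the 348 V rows as functional V genes and 130 as pseudogenes, and all 160 members were annotated as functional V genes, with no pseudogene among them. In GRCm38 the heavy members lay on chromosome 12 between positions 113578504 and 116000461, the kappa members on chromosome 6 between 67555497 and 70704177, and the lambda members on chromosome 16 between 19085017 and 19260859. Their annotated transcripts were 338 to 501 bases long, with a median of 360.

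The total count per tumour ranged from 8.76 M to 34.3 M. Protein-coding genes took 82.9% to 89.2% of counts in controls, non-responders and stable tumours, but 23.8% to 87.0% in responders, with 23.8% in responder 1 and 54.2% in responder 4. The numbers that open the sample descriptions run by group, and the labels do not say what they stand for. The labels name a stranded total RNA kit and also give the molecule as polyA RNA. Levels are given as CPM, counts per 1 M counts of the whole library. In bulk tissue, fewer B-lineage cells and less immunoglobulin RNA per cell cannot be told apart.

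The stretches of 300 coding bases below belong to the segments on which the later results turn, so that a reader can see how much sequence tells each apart from its closest copy. They are taken from the GENCODE M21 transcripts, run 5′ to 3′ on the coding strand, and show in capitals the bases that differ from the most similar other V segment. Each stretch is the 300 bases that hold the most such differences. Igkv14-111 (chr6:68256389-68256869, plus strand) is set against Igkv14-126 (chr6:67896172-67896642, plus strand), from which it differs at 30 of 353 positions (91.5% identity), and the reverse comparison is shown for Igkv14-126. Bases 49 to 348 of both are printed, with 27 of the differences. Igkv5-43 (chr6:69823355-69823943, minus strand) differs from Igkv5-45 at 5 of 347 positions, all within the printed bases 1 to 300. Ighv14-4 (chr12:114176438-114176867, minus strand) differs from Ighv14-1 at 9 of 351 positions, all within bases 1 to 300. Ighv11-2 (chr12:114048241-114048812, minus strand) differs from Ighv11-1 at 4 of 353 positions, all within bases 22 to 321.
Igkv14-111: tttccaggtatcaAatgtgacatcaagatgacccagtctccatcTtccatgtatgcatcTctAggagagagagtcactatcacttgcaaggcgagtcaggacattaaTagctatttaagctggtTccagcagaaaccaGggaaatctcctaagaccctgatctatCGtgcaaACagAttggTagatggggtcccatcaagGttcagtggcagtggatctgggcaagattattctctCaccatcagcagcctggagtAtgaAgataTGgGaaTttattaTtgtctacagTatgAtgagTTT
Igkv14-126: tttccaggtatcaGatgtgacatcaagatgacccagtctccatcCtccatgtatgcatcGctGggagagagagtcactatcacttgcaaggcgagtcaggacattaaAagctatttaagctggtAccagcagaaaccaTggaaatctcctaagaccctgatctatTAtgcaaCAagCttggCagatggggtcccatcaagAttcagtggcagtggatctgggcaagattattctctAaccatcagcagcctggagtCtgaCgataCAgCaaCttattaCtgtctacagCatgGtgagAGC
Igkv5-43: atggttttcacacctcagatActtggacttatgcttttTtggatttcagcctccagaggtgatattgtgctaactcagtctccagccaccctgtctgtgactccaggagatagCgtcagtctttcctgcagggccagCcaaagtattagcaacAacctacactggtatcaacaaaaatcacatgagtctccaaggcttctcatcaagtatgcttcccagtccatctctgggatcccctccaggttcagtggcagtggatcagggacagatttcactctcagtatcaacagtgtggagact
Ighv14-4: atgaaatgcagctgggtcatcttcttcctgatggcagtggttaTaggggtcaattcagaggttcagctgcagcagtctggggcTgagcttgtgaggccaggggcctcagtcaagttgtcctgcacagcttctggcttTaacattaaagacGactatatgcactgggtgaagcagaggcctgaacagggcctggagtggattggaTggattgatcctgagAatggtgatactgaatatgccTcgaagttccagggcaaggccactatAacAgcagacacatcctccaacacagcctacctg
Ighv11-2: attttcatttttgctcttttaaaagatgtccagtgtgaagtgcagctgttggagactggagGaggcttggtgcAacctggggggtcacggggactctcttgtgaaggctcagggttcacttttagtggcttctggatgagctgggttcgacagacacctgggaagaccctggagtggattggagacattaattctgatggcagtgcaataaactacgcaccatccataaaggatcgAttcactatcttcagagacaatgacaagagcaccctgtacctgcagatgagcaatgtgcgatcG
Of these, Igkv14-111 had no other V segment at 95% identity or more. An estimated count that is not whole means that reads were shared out between similar genes. Of the 25 values, 4% were not whole for Igkv14-111, 32% for Igkv5-43 and 20% for Ighv14-4, and the split of counts between near-identical copies is uncertain. Ighv1-18, used below, is 96.9% identical to Ighv1-26, and 48% of its values were not whole.

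The summed level of the V segments was lowest in controls and highest in stable tumours. In controls it was 3.20, 3.63, 28.4, 12.7 and 7.19 CPM in tumours 1 to 5, with a mean of 11.0 ± 10.4 CPM (SD, n = 5). Control 3 stood above the other controls. In non-responders it ran from 34.5 to 88.3 CPM, with a median of 58.0 CPM and a mean of 60.3 ± 22.4 CPM (SD, n = 6). In stable tumours it ran from 69.7 to 509 CPM, with a median of 207 CPM and a mean of 234 ± 159 CPM (SD, n = 6). All 6 non-responders and all 6 stable tumours lay above every control, and 5 of 6 stable tumours lay above every non-responder.

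**Figure D1:**
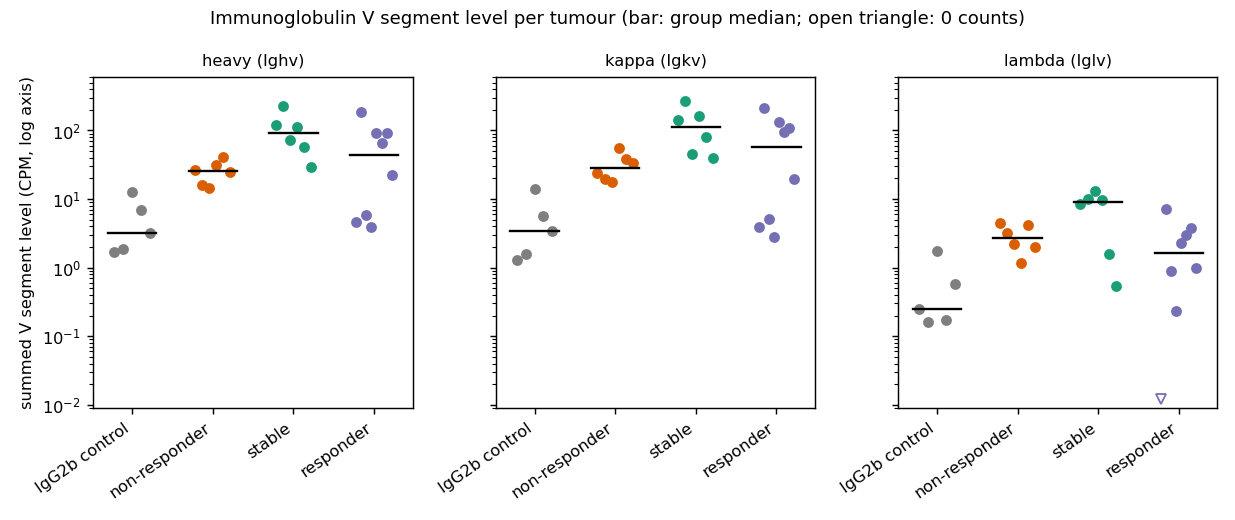
Summed level of heavy, kappa and lambda V segments (CPM, log axis) in each of the 25 tumours by group, with 1 point per tumour, a bar at the group median and an open triangle for the tumour with 0 lambda counts. Non-responders and stable tumours lie above all controls for heavy and kappa segments, and responders split into 4 high and 3 low tumours, with responder 8 between them.

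Responders covered nearly the whole range of the series. Their summed V level ran from 6.96 to 403 CPM, with a median of 103 CPM and a mean of 133 ± 142 CPM (SD, n = 8). Responders 2, 5, 6 and 7 held 403, 228, 164 and 202 CPM, above every non-responder. Responders 1, 3 and 4 held 8.55, 11.9 and 6.96 CPM, below every non-responder, and responder 8 held 42.8 CPM. The responder mean was 2.21 times that of non-responders and 0.569 times that of stable tumours, and in both comparisons the groups overlapped. Responders 1 and 4 are the libraries with the lowest protein-coding share. Without them the responder mean was 175 CPM, and per 1 M protein-coding counts it was 188 ± 193 against 70.5 ± 27.2 for non-responders and 273 ± 185 for stable tumours (SD). No p-value is given for a sum over members that were chosen with results known.

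Single segments were tested with edgeR's quasi-likelihood test, with p-values adjusted over 18031 genes (Benjamini-Hochberg), and a segment is called at an adjusted p under 0.05. Only 55 of the 160 members passed the low-count filter, 29 heavy, 24 kappa and 2 lambda. The filter keeps a gene that reaches its minimum in enough tumours, whichever group they are in. The tested members are thus those that were high somewhere, and the counts below describe them alone. In controls 1 to 5 only 1, 0, 20, 8 and 1 members had at least 10 counts, so members passed mainly through tumours under anti-CTLA-4. The filter thereby favoured calls higher than in controls, and the lack of calls lower there is no separate result. The labels give separate tumours, so the p-values measure the spread between tumours. The 4 comparisons with controls share the same 5 control tumours, and the 3 comparisons among outcome groups share their tumours in pairs.

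Against controls, the called segments were all higher under anti-CTLA-4. In stable minus control, 42 of 55 tested members were called higher and 0 lower, where 22.2% of all genes were called higher and 19.6% lower. The members' median log2 fold change was 3.84, against 0.02 over all genes. Both tested lambda segments, Iglv1 and Iglv3, were among them. In responder minus control, 35 of 55 were called higher and 0 lower, against 36.1% of all genes higher and 28.9% lower, with a members' median of 3.02 against 0.16. In non-responder minus control, 9 of 55 were higher and 0 lower, against 10.6% and 3.29% of all genes, so the share of members called higher, 16.4%, was not far from that of all genes. With the 3 outcome groups weighted equally, anti-CTLA-4 minus control gave 34 higher and 0 lower, against 27.7% and 23.4% of all genes. At an unadjusted p under 0.05, edgeR gave 44, 36, 19 and 44 of the 55 members in these 4 comparisons, or 80.0%, 65.5%, 34.5% and 80.0%, against 48.7%, 67.9%, 28.4% and 57.0% of all genes. In responder minus control the members' share by this count was near that of all genes. DESeq2 called 70 of 130, 46 of 137, 17 of 95 and 57 of 130 members with an adjusted p higher and 0 lower, or 53.8%, 33.6%, 17.9% and 43.8%, against 18.4%, 31.5%, 11.2% and 23.2% of genes. With only the 2 groups compared in the edgeR fit, fewer members passed the filter, and 16 of 17 were called higher in stable, 7 of 11 in responder and 3 of 5 in non-responder minus control, against 27.4%, 31.3% and 6.45% of genes. When the test asked for more than a 2-fold change, 21, 20, 0 and 10 members were called higher in these comparisons, against 8.29%, 14.1%, 1.13% and 6.92% of all genes. In non-responder minus control the count fell to between 3 and 5 when control 1, 2 or 4 or non-responder 4, 5 or 6 was left out.

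Among outcome groups, the stable tumours had the higher level for nearly all segments called against either other group. Members with at least 10 counts averaged 45.8 in stable tumours, 22.8 in non-responders and 21.1 in responders, so members passed the filter more through stable tumours. The filter thereby favoured calls higher in stable tumours, and the near lack of calls the other way is no separate result. In stable minus non-responder, 15 of 55 members were called higher and 0 lower, against 7.08% of all genes higher and 7.86% lower, with a members' median log2 fold change of 1.69. At an unadjusted p under 0.05 there were 22 members, or 40.0%, against 29.2% of all genes, and DESeq2 called 23 of 95 higher and 0 lower, against 8.22% of genes higher. With only the 2 groups in the fit, 1 of the 19 members that passed the filter was called higher, or 5.26%, against 5.55% of genes, so in that fit the members' share was near that of all genes. In responder minus non-responder, 10 were called higher and 1 lower, against 25.2% and 23.8% of all genes, so that the share called higher, 18.2%, did not exceed that of all genes. At an unadjusted p under 0.05 there were 13 members, or 23.6%, against 56.3% of all genes, and with a change of more than 2-fold asked for 0 members were called, against 0.926% of all genes higher. In responder minus stable, 1 was called higher and 12 lower, against 20.5% and 17.8% of all genes, with a members' median of -1.08. Adding each library's protein-coding share to the edgeR model left 6 members called in responder minus non-responder. In responder minus stable it left 0 of the members and 0 of all 18031 genes, with 2296 genes at an unadjusted p under 0.05, while DESeq2 without it called 19 members there. Leaving out responders 1 and 4 gave 8 calls in responder minus stable. With only the 2 groups in the fit, 2 of 14 members were called higher in responder minus non-responder, against 20.5% of genes, and 1 of 24 was called higher and 5 lower in responder minus stable, against 20.2% of genes higher. The stable minus non-responder count fell to 7 or 8 without non-responder 1, 2, 3 or 5 or stable 2 or 4, and the responder minus non-responder count to 6 or 7 without non-responder 2 or 3 or responder 7. The single segment lower in responders than in non-responders was Igkv4-55, at 0.0427 against 0.479 CPM, named here after its value was seen.

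Among the most abundant called segments, 1 or a few tumours held most of the counts. Ighv1-9 reached 12.0 ± 19.0 CPM for stable tumours (median 0.95), against 0.48 ± 0.69 CPM for non-responders and 0.45 ± 0.40 CPM for responders (SD). Its log2 fold change was 4.87 ± 1.18 (SE) in stable minus non-responder (edgeR adjusted p = 0.00897) and -4.59 ± 1.05 (SE) in responder minus stable (adjusted p = 0.00395). Its counts were 735 in stable 1 and 484 in stable 5, and 4 to 21 in the other stable tumours. Neither call was lost by leaving out any 1 tumour, and without stable 1 the values were 3.69 and -3.43, but that of responder minus stable was lost with the protein-coding covariate (edgeR adjusted p = 0.34). Ighv1-64 was called in responder minus non-responder (log2 fold change 4.37 ± 1.27, SE; edgeR adjusted p = 0.00779), at 4.65 ± 8.68 against 0.29 ± 0.21 CPM (SD). Without responder 2 the fold change was 3.26, and the call was lost with the protein-coding covariate (edgeR adjusted p = 0.076).

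Other such calls were lost without 1 tumour. Igkv10-96 was called lower in responders than in stable tumours (log2 fold change -3.27 ± 0.84, SE; edgeR adjusted p = 0.00648), and the call was lost without stable 5, where the fold change was -1.61. Igkv3-4 was called lower too (-3.52 ± 1.04, SE; edgeR adjusted p = 0.0128), and lost without stable 4 (-2.04). Ighv1-18 was the 1 segment called higher in responders than in stable tumours (4.21 ± 1.46, SE; edgeR adjusted p = 0.0277). That call was lost without responder 2 (2.10) and without stable 2, 4, 5 or 6, and DESeq2 gave it no adjusted p. For non-responder minus control, Ighv9-3 had a log2 fold change of 3.75 ± 1.22 (SE; edgeR adjusted p = 0.0423), falling to 1.49 without non-responder 5. Igkv10-96 had 3.36 ± 1.10 there (SE; edgeR adjusted p = 0.0425), falling to 2.61 without non-responder 4. Both of these calls were also lost without control 1, 2, 4 or 5, and each without at least 1 more tumour.

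**Figure D2:**
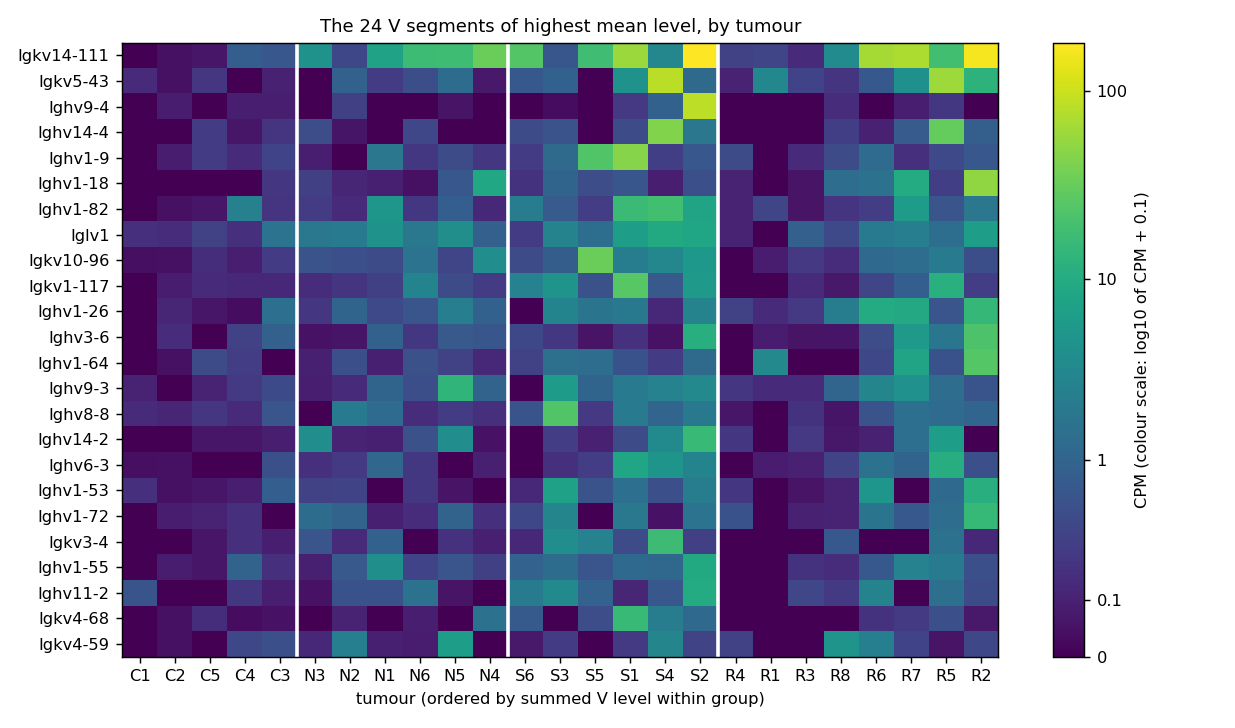
Level of the 24 V segments with the highest mean level in each of the 25 tumours, as colour on a log10 scale of CPM plus 0.1, with tumours ordered within each group by their summed V level and white lines between groups. Igkv14-111 is bright across most anti-CTLA-4 tumours, while the other rows are bright in 1 to a few tumours each.

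More segments were detected where there were more V counts. The number of members with at least 1 count was 32, 43, 89, 71 and 55 in controls 1 to 5. It ran from 75 to 111 in non-responders (median 100), from 93 to 140 in stable tumours (median 114) and from 17 to 132 in responders (median 91.5). The order of the group means, 58.0 in controls, 79.6 in responders, 95.2 in non-responders and 115 in stable tumours, is that of breadth without regard to depth. The V counts behind it ran from 60 in responder 4 to 9904 in stable 2.

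At equal depth the mean was highest in controls and lowest in responders. For each tumour the expected number of segments among 100 V counts drawn at random was computed, which left out controls 1 and 2 and responder 4 for having fewer counts. It was 44.8 ± 6.08 for controls (SD, n = 3), 36.1 ± 6.51 for non-responders (SD, n = 6), 32.6 ± 4.16 for stable tumours (SD, n = 6) and 30.5 ± 9.60 for responders (SD, n = 7). The gap between the responder and stable means rests on responder 1, at 15.8, the library with the lowest protein-coding share. The medians of responders and stable tumours were 30.9 and 31.5. The groups overlapped: 5 of 6 non-responders, 5 of 6 stable tumours and 5 of 7 responders lay below all 3 controls. At 300 counts the means were 68.7, 61.7, 57.0 and 52.4 segments, over 2 controls, 6 non-responders, 6 stable tumours and 5 responders.

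**Figure D3:**
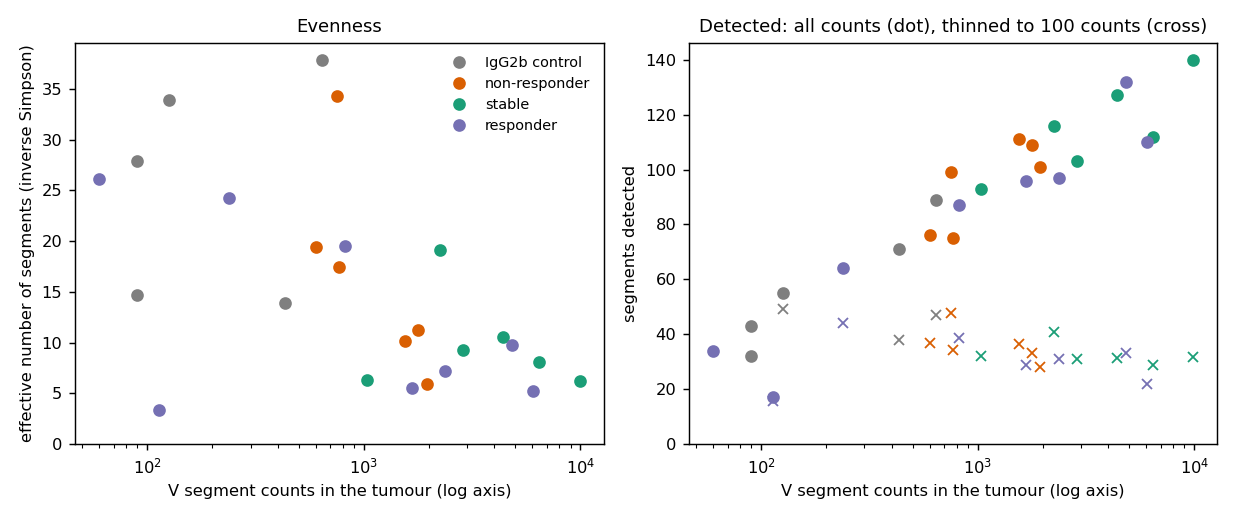
Left, effective number of segments, and right, segments detected with all counts (dots) and after thinning to 100 V counts (crosses), each against the V counts of the tumour on a log axis, with 1 colour per group. Detected segments climb with the number of counts, while thinned numbers run between 15.8 and 49.4 and are lowest in responder 1.

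Few segments made up much of the signal in the tumours under anti-CTLA-4. The effective number of segments, which is the number of equally common segments that would give the same chance of drawing a segment 2 times (inverse Simpson), was 14.7, 27.9, 37.8, 13.9 and 33.9 in controls 1 to 5, with a mean of 25.7 ± 10.9 (SD, n = 5). It was 16.4 ± 10.1 in non-responders, from 5.93 to 34.3 with a median of 14.4. In stable tumours it was 9.94 ± 4.81, from 6.27 to 19.2 with a median of 8.68, and 5 of 6 lay below every control. In responders it was 12.6 ± 9.20, from 3.38 to 26.1 with a median of 8.46, and 5 of 8 lay below every control. All 4 responders with a high V level were at 9.74 or less. Counts per kilobase of transcript gave means of 26.6, 16.4, 9.72 and 12.7 in the same order of groups. Among tumours with at least 300 V counts only, the responder mean was 9.44.

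The leading segment's share of V counts was 18.9%, 7.78%, 5.75%, 20.0% and 7.94% in controls 1 to 5. Its median was 17.0% in non-responders (9.16% to 37.3%), 26.4% in stable tumours (17.6% to 35.3%) and 30.6% in responders (8.33% to 40.1%). The 3 leading segments together took 26.2 ± 9.83% in controls and 38.7 ± 12.8%, 48.9 ± 9.97% and 46.1 ± 19.4% in non-responders, stable tumours and responders (SD). In stable 2, stable 6, responder 1 and responder 2, the first 2 segments passed 50% of all V counts. No p-value is given for these scores.

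Apart from Igkv14-111, which is described below, the leading segment mostly differed from tumour to tumour. It was 1 of 14 over the 25 tumours, kappa in 17 (in control 2 level with a heavy segment, at 7 counts each), heavy in 7 and lambda in 1. There were 12 different leading kappa segments, but 20 different leading heavy segments. Of the 160 members, none was detected in all 25 tumours, 31 were detected in at least 20, and the median member was detected in 14. For 55 members at least 50% of their own counts came from a single tumour. The most extreme of the abundant ones was Ighv9-4, with 1671 of its counts, 97.2%, in stable 2 and at most 21 in any other tumour, and it did not pass the filter.

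**Figure D4:**
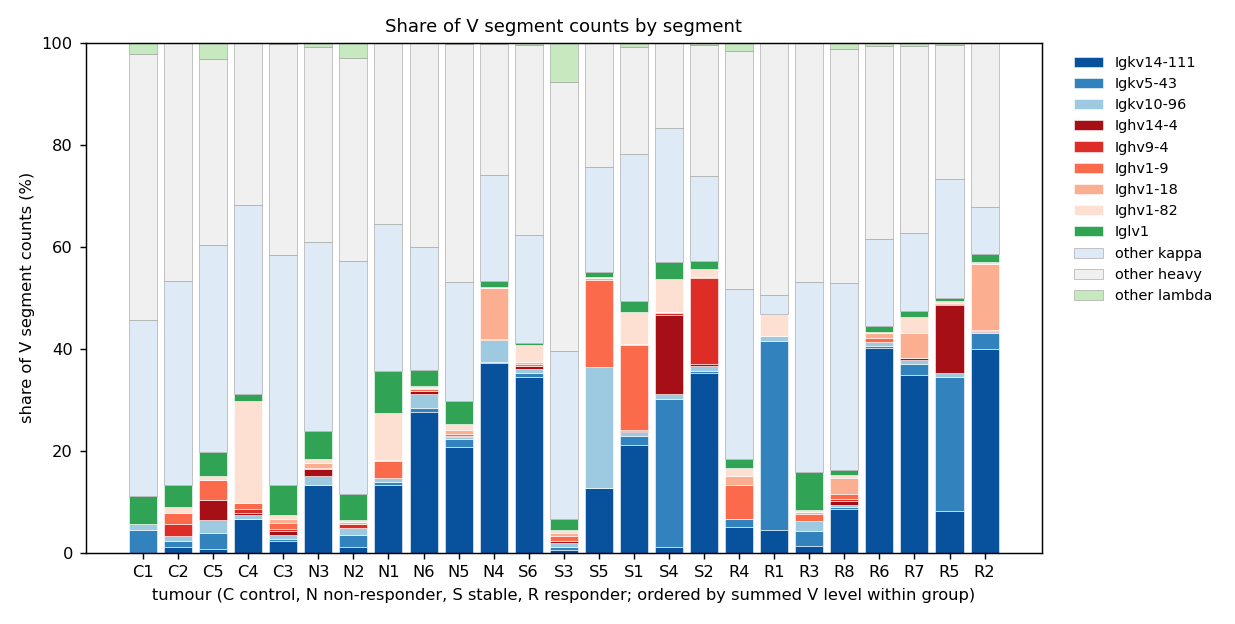
Share of V segment counts (%) taken by 9 named segments and by all other kappa, heavy and lambda segments in each of the 25 tumours, ordered within each group by summed V level. Igkv14-111 takes up to 40.1% in tumours under anti-CTLA-4 and at most 6.68% in controls.

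Igkv14-111 was the exception to this variety. It held 22.0% of all V counts of the series and led in 11 tumours, with 5 non-responders, 3 stable tumours, 3 responders and no control. Its mean level of 74.5 CPM per kilobase over the 25 tumours compares with 18.4 CPM per kilobase for Igkv5-43, the next. In controls 1 to 5 it had 0, 1, 15, 29 and 1 counts. In non-responders it ran from 0.41 to 32.9 CPM (median 12.1), in stable tumours from 0.64 to 180 CPM (median 20.8) and in responders from 0.15 to 161 CPM (median 11.2). Of the tumours under anti-CTLA-4, 5 of 6 non-responders, 4 of 6 stable tumours and 6 of 8 responders had at least 5% of V counts in it, against 1 of 5 controls.

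In tests against controls, Igkv14-111 rose in each outcome group. The log2 fold change was 7.12 ± 1.82 (SE; edgeR adjusted p = 0.00294) for stable tumours, 7.01 ± 1.79 (SE; edgeR adjusted p = 0.00173) for responders and 5.24 ± 1.71 (SE; edgeR adjusted p = 0.0438) for non-responders. Without stable 2 the first was 5.93, and without responder 2 the second was 6.18, both still called. The call in non-responders was lost when any 1 of the 5 controls, non-responder 4, 5 or 6 or stable 1 was left out, where the fold change stayed between 4.75 and 6.11, and also with no low-count filter. Between outcome groups it was not called: responder minus non-responder gave 1.77 ± 1.203 (SE; edgeR adjusted p = 0.22), stable minus non-responder 1.89 ± 1.26 (SE; edgeR adjusted p = 0.33) and responder minus stable -0.12 ± 1.13 (SE; edgeR adjusted p = 0.95). The last of these changed sign with the protein-coding covariate (1.38) and without responders 1 and 4 (0.27). With Igkv14-111 taken out of the shares, the effective number was 25.1, 21.0, 11.8 and 16.8 in controls, non-responders, stable tumours and responders, with stable tumours and responders again below controls in the mean.

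Bulk counts carry no mark of the cell, so which heavy segment was joined with Igkv14-111 in a cell cannot be read from them. The leading heavy segments of the tumours rich in it differed. In stable 2 it had 3500 counts beside 1671 of Ighv9-4, and in responder 2 it had 2422 beside 786 of Ighv1-18. In stable 1 it had 927 beside 735 of Ighv1-9, and in non-responder 5 it had 370 beside 280 of Ighv9-3. In non-responder 4 (726) and non-responder 6 (427) Ighv1-42 and Ighv1-7 were the leading heavy segments, with 208 and 122 counts. Ighv1-18 had 195 counts in non-responder 4 and 117 in responder 7 as well, all tumours rich in Igkv14-111.

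A second recurrent combination was Igkv5-43 with Ighv14-4, whose coding sequences are printed above. In stable 4 they had 1875 and 1001 counts, or 29.0% and 15.5% of V counts. In responder 5 they had 1266 and 644 counts, or 26.2% and 13.3%. In the other 23 tumours Ighv14-4 had at most 36 counts. The overlap of the segment mix is given as the Morisita-Horn index (0 for no shared segment, 1 for equal shares), which weights the commonest segments most. It was 0.889 between these 2 tumours, mostly through the 2 segments named, so it is no separate result. Without Igkv14-111 it was 0.915, the highest of 300 pairs of tumours, whose median was 0.178. Of these pairs 6 reached 0.5, against 51 with Igkv14-111 included. The heavy constant regions of the same 2 tumours differed, with Ighg1 at 59.8% of heavy constant counts in stable 4 and 9.10% in responder 5, and Ighg2c at 17.5% and 41.1%.

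Both segments were called in several comparisons. Igkv5-43 in stable minus non-responder had a log2 fold change of 4.96 ± 1.59 (SE; edgeR adjusted p = 0.0377), falling to 1.56 without stable 4. In responder minus non-responder it had 4.50 ± 1.53 (SE; edgeR adjusted p = 0.0193), falling to 3.06 without responder 5, and both calls were lost there. The first was also lost without non-responder 1, 2, 3 or 4, and the second with the protein-coding covariate (edgeR adjusted p = 0.054). Ighv14-4 had 5.57 ± 1.84 (SE; edgeR adjusted p = 0.0431) and 4.61 ± 1.75 (SE; edgeR adjusted p = 0.0334) in the same comparisons, falling to 1.99 and 1.03 without those tumours. The calls of Ighv14-4 were also lost without several non-responders, and with no low-count filter. Against controls, Igkv5-43 was called in stable tumours (7.38 ± 2.03, SE; edgeR adjusted p = 0.00516) and responders (6.92 ± 1.98, SE; edgeR adjusted p = 0.00411), with 11 counts in all 5 controls together, and neither call was lost by leaving out 1 tumour, though the values fell to 3.93 without stable 4 and 5.47 without responder 5. Ighv1-18 had a log2 fold change of 7.63 ± 2.00 in responder minus control (SE; edgeR adjusted p = 0.00205), 5.53 without responder 2 and 10.4 without control 3, from which all its 5 control counts came.

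Responder 1, with 113 V counts, was the most dominated tumour. Ighv1-64 had 44 of these counts and Igkv5-43 had 42, and its effective number of 3.38 was the lowest of the series. Its heavy constant counts were 68.7% Ighg2b, where the other 7 responders had 6.41% to 17.3%. This library also had the lowest protein-coding share, 23.8%, and the part of that in the result was not tested.

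Stable 3 was built in another way from the other stable tumours. Its leading segments were Ighv8-8 with 396 counts and the lambda segment Iglv2 with 145, and 22.1% of its light chain V counts were lambda, against 1.34% to 5.59% in the other 5 stable tumours. Iglv2, named after its values were seen, had at most 31 counts in any other tumour. The lambda constant region Iglc2 was at 20.3 CPM in stable 3 and at 0.81 to 4.99 CPM in the other stable tumours. Ighm, the constant region of IgM, took 83.2% of its heavy constant counts, and Igkv14-111 had 11 counts there.

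Ighv11-2 led in control 1, the tumour with the least V signal. Ighv11-2 with Igkv14-126 is known as the pair of B-1 cells that bind phosphatidylcholine, a population of innate-like B cells, and Igkv14-126 was named for this after its values were seen. The 2 segments had 17 and 7 of 90 counts in control 1, 193 and 145 in stable 2, 40 and 24 in non-responder 6, 60 and 28 in stable 3, and 32 and 33 in responder 5. In 7 tumours both were at 0 or 1 counts. Ighv11-2 took 18.9% of V counts in control 1 and at most 3.35% elsewhere. Its closest copy, Ighv11-1, had 0 counts in all tumours.

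The families showed which segments drew the counts. Heavy family 1, the largest with 43 members, held 22.3% of all V counts and averaged 25.3 ± 9.98% over the 25 tumours (SD), with group means from 22.2% in stable tumours to 28.8% in responders. Kappa family 14, with 3 members, averaged 4.51 ± 3.10% for controls against 19.9 ± 12.4% for non-responders, 18.3 ± 15.8% for stable tumours and 18.6 ± 16.7% for responders (SD). In controls 1 to 5, Igkv14-111 made up 0%, 1.11%, 2.33%, 6.68% and 0.794% of V counts, and Igkv14-126 of the same family 7.78%, 0%, 0.156%, 1.15% and 2.38%. Kappa family 12 went the other way in the means, from 6.29 ± 4.03% in controls to 1.73 ± 1.61% in responders (SD). Kappa families 6 and 2 were also highest in controls, at 4.74 ± 2.35% and 2.62 ± 3.12% (SD). Summed by family, the effective number was 8.63 for controls, 7.38 for non-responders, 5.97 for stable tumours and 6.04 for responders.

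Heavy and light chain segments took similar shares in all groups. The heavy share of V counts was 49.8 ± 4.25% for controls, 43.0 ± 4.93% for non-responders, 44.6 ± 5.74% for stable tumours and 47.8 ± 6.13% for responders (SD). The lambda share of light chain V counts was 10.8 ± 5.16% for controls, 9.70 ± 5.16% for non-responders, 6.69 ± 7.75% for stable tumours and 4.83 ± 4.59% for responders (SD). Iglv1 led or tied for the lead among lambda segments in all tumours but stable 3, responder 8 and responder 1, the last with 0 lambda counts of 113 V counts. In all 4 groups the median effective number was lower for kappa than for heavy segments, at 10.6 against 16.2 for controls, 5.98 against 9.67 for non-responders, 3.96 against 5.46 for stable tumours and 3.29 against 9.86 for responders. The control means were near equal, at 12.75 for kappa and 12.84 for heavy segments. In controls 1, 4 and 5 the kappa number was the higher one, by little in control 5 (16.19 against 16.16).

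The constant regions followed a similar order of groups. The choice of V segments did not use them, but they lie on the same immunoglobulin RNA and are no independent measure. For each Igkc count, the kappa constant region, there were 0.373 to 0.656 kappa V counts over the 25 tumours, with 52 to 8643 Igkc counts per tumour. Igkc was 2.98, 3.07, 29.2, 10.3 and 6.23 CPM for controls 1 to 5, and averaged 58.2 ± 27.3 CPM for non-responders, 210 ± 135 CPM for stable tumours and 119 ± 123 CPM for responders (SD). It rose against controls in stable tumours (log2 fold change 4.43 ± 0.94, SE; edgeR adjusted p = 0.000568) and responders (3.70 ± 0.89, SE; edgeR adjusted p = 0.00101). In non-responders it gave 2.49 ± 0.86 (SE; edgeR adjusted p = 0.0555). Of the 13 listed constant region and joining chain genes, 12 were tested, all but Ighe. In stable minus control 12 were higher, in responder minus control 10 and in non-responder minus control 4, with none lower. Of all genes 22.2%, 36.1% and 10.6% were higher in these comparisons, and 19.6%, 28.9% and 3.29% lower. In stable minus non-responder 3 of the 12 genes were higher, Ighm, Iglc2 and Jchain, against 7.08% of all genes. The call of Jchain there was lost in 15 of the 25 fits that each left out 1 tumour. In responder minus non-responder none was called, against 25.2% of all genes higher and 23.8% lower. In responder minus stable 2 of 12 were lower, Ighm and Iglc1, against 17.8% of all genes, so the share was near that of all genes.

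**Figure D5:**
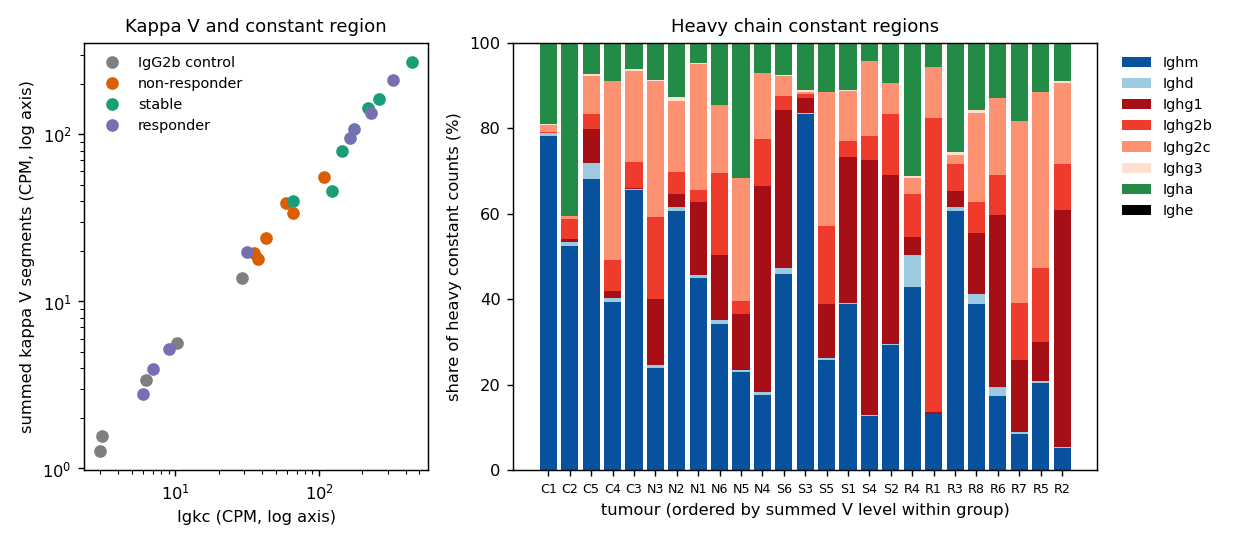
Left, summed kappa V segments against Igkc in each tumour (both CPM, log axes), and right, shares (%) of the 8 heavy constant regions among heavy constant counts per tumour, ordered within each group by summed V level. The 25 points lie along 1 line on the left. On the right, Ighm in blue gives way to the IgG regions in red in many tumours under anti-CTLA-4, and also in control 4.

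The classes of heavy chain also differed between tumours. B cells start with Ighm and Ighd and can exchange them for the IgG, IgE or IgA regions. Ighg1 took 0%, 0.611%, 0.225%, 1.57% and 7.87% of heavy constant counts in controls 1 to 5. Its mean was 18.8 ± 15.4% for non-responders, 31.1 ± 20.2% for stable tumours and 18.0 ± 19.6% for responders (SD), up to 59.8% in stable 4. Ighg2c averaged 14.8 ± 17.2% for controls (SD), up to 41.7% in control 4. Its means were 23.0 ± 7.80% for non-responders, 12.1 ± 11.1% for stable tumours and 19.9 ± 15.2% for responders (SD). Ighg1 had a log2 fold change against controls of 8.18 ± 1.81 for stable tumours (SE; edgeR adjusted p = 0.000855), 7.20 ± 1.73 for responders (SE; edgeR adjusted p = 0.001003) and 5.81 ± 1.66 for non-responders (SE; edgeR adjusted p = 0.0213). Ighm rose in stable minus control (3.17 ± 0.64, SE; edgeR adjusted p = 0.000333) and fell in responder minus stable (-2.26 ± 0.52, SE; edgeR adjusted p = 0.00409), while responder minus control gave 0.91 ± 0.56 (SE; edgeR adjusted p = 0.16). The call of Ighm in responder minus stable was lost with the protein-coding covariate, where 0 of all 18031 genes were called. Its share of heavy constant counts averaged 60.7 ± 15.1% in controls and 25.8 ± 19.5% in responders (SD).

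Many B-lineage genes outside the immunoglobulin loci were lower in controls as well. The sum of the plasma cell genes was also lowest in controls in the mean, but responders lay on both sides of them. Jchain, which joins IgM and IgA units, had a log2 fold change against controls of 4.83 ± 0.88 for stable tumours (SE; edgeR adjusted p = 0.000116), 3.72 ± 0.82 for responders (SE; edgeR adjusted p = 0.000438) and 2.71 ± 0.80 for non-responders (SE; edgeR adjusted p = 0.0257). The call in non-responders was lost in 6 of the 25 fits that each left out 1 tumour. Of all genes tested, 36.1%, 22.2% and 10.6% were called higher than in controls in responders, stable tumours and non-responders, and 28.9%, 19.6% and 3.29% lower, against which the counts of each list are read. Of 15 listed B cell genes 14 were tested, and 14, 12 and 6 were higher than in controls in responders, stable tumours and non-responders, with none lower. Of 12 plasma cell genes 11 were tested, and 8, 8 and 4 were higher than in controls in responders, stable tumours and non-responders. In responders 2 of them were lower and in stable tumours 1. The summed level of the 12 plasma cell genes was 340 ± 32.8 CPM in controls, 424 ± 31.8 CPM in non-responders, 539 ± 109 CPM in stable tumours and 370 ± 150 CPM in responders (SD). Responders ran from 128 to 603 CPM, on both sides of the 305 to 393 CPM of controls. Of 9 genes of class switching and the germinal centre, the site where B cells mutate and are selected, 7 were tested, and 6, 7 and 6 were higher than in controls. None of the 6 genes of V segment joining and the surrogate light chain was tested, and Rag2 had 0 counts in all 25 tumours.

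Over the 25 tumours, the genes outside the immunoglobulin loci whose levels were most like the summed V level were Jchain (Spearman rho 0.97), Mzb1 (0.94), Slpi (0.92), Pou2af1 (0.90) and Cpxm1 (0.89), among 15293 genes with a mean of at least 1 CPM. These rho values are a description, since all tumours share the difference in depth and in group. Mzb1 encodes a chaperone of plasma cells and Pou2af1 a transcription cofactor of B cells. Their mean levels were 0.171 CPM and 0.173 CPM in controls and 2.61 CPM and 2.24 CPM in stable tumours.

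Markers of T cells and macrophages were also lowest in controls and highest in stable tumours in the mean. The summed level of 6 T cell markers was 7.81 to 25.0 CPM in controls, 19.9 to 171 CPM in non-responders, 116 to 193 CPM in stable tumours and 24.3 to 211 CPM in responders. All 6 were called higher in each outcome group than in controls. The 4 macrophage markers summed to 382 CPM in the mean of controls and to 1016 to 1656 CPM in stable tumours, and the 6 melanocyte markers to 10883 to 17684 CPM in controls and 11.0 to 177 CPM in stable tumours. In non-responders the macrophage sum was 388 to 1133 CPM and the melanocyte sum 390 to 13880 CPM, and in responders they were 146 to 1361 CPM and 16.3 to 427 CPM. Lymph node stroma and vessel markers, of which 5 of 6 were in the table, were 14.7 to 43.3 CPM in controls, 41.8 to 162 CPM in non-responders, 25.5 to 117 CPM in stable tumours and 0.076 to 88.6 CPM in responders. Glycam1, a marker of lymph node vessels, had 0 counts in controls and at most 5 over all tumours of any other group. The 4 skin epithelium markers ran from 7.65 to 522 CPM in controls, 1.71 to 331 CPM in non-responders, 7.71 to 67.7 CPM in stable tumours and 0.519 to 1265 CPM in responders. The part of lymph node tissue, of skin and of the other cells in the V segment levels was not tested.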

How the data were processed

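RNA-seq libraries of 25 tumours were used, 1 per tumour. The authors deposited estimated counts per gene. Per the submitters' processing notes, the tools were bcl2fastq 2.17, Trimmomatic, STAR 2.5.1 and RSEM 1.2.22 on build mm10. The sources used here do not say how reads were shared between similar segments. The deposited table of normalized values was not used, since it holds no V segment rows, and untreated mice were not analysed here. Columns matching no sample numbered 0.

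Counts were rounded to whole numbers. Genes were tested with edgeR 4.0.16 (R 4.3.3): quasi-likelihood fit over all 25 tumours with 4 group means, TMM normalization, the default low-count filter and Benjamini-Hochberg adjustment over 18031 genes, checked on simulated data. Alternatives included DESeq2 1.42.0, other filters, a protein-coding covariate and leaving out each tumour. Other values were computed with Python 3.11.15, pandas 2.3.3, numpy 2.4.6 and scipy 1.17.1. No 2 replicates agreed within sampling noise (smallest chi-square per gene 18.1).

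Members and lists were chosen with earlier results of these data known. Members named are the leading one of each tumour, the 10 with the highest mean CPM, up to 3 called members per direction and comparison with the largest change and a mean of at least 1 CPM, and those next to the threshold. Other segments named (Ighv1-7, Ighv1-26, Ighv1-42, Igkv4-55, Igkv14-126, Iglv2, Iglv3, leading heavy segments and closest copies) were chosen after their values were seen. Depth limits each share: the total V count was 60 to 9904 per tumour. Values of some single genes of the lists are not reported here.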

Additional observations from a re-analysis of the deposited data

Results flagged for a closer look

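In 26 of 68 values examined by group, 1 tumour lay far from the others of its group by Dixon's criterion. For normally distributed values, chance alone meets it in about 1 in 20 groups, but segment levels are skewed. The segments flagged were among the 10 of highest mean CPM, a rank that 1 tumour can bring about. The number of flags is therefore not compared with that rate. The values share tumours and counts, so they are not independent.

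In stable tumours, the levels so marked were Igkv14-111 at 180 CPM and Ighv9-4 at 85.9 CPM in stable 2, Igkv5-43 at 82.1 CPM and Ighv14-4 at 43.8 CPM in stable 4, Igkv10-96 at 33.0 CPM in stable 5 and Igkv1-117 at 26.0 CPM in stable 1. Stable 3 stood apart in its effective number of segments, 19.2, in its lambda share of light chain V counts, 22.1%, and in its heavy share of V counts, 55.5%.

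In responders, the tumours that stood apart were responder 2 with Igkv14-111 at 161 CPM, Ighv1-18 at 52.3 CPM and Iglv1 at 6.45 CPM, and responder 5 with Igkv5-43 at 59.7 CPM, Ighv14-4 at 30.4 CPM and Igkv1-117 at 11.6 CPM. Responder 7 stood apart for Ighv1-82 at 6.05 CPM, and responder 4 for its 0.462 kappa V counts per Igkc count, from 52 Igkc counts.

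In non-responders, these were Ighv1-18 at 8.83 CPM and Igkv10-96 at 3.86 CPM in non-responder 4, Ighv1-82 at 5.15 CPM and Ighv1-9 at 1.84 CPM in non-responder 1, Igkv1-117 at 2.86 CPM in non-responder 6 and Ighv9-4 at 0.309 CPM in non-responder 2. In controls, they were Ighv1-82 at 2.54 CPM in control 4, and Iglv1 at 1.63 CPM and Ighv1-18 at 0.224 CPM in control 3.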

How the results depend on the processing

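No paired analysis was possible because replicate numbers only follow the order of the records. For V segments called, at least a 2-fold change gave 0 in responder minus non-responder, responder minus stable, stable minus non-responder and non-responder minus control, 20 in responder, 21 in stable and 10 in anti-CTLA-4 minus control. The stricter filter (mean count 50, and 1 CPM in 8 tumours), which tests fewer genes, gave 1, 0, 1, 1, 2, 2 and 2 in that order. Only the groups compared gave 2, 6, 1, 3, 7 and 16 (not run for anti-CTLA-4, which uses all groups). No filter gave 28 in responder minus stable and 68 in stable minus control. DESeq2 gave 23 in stable minus non-responder, 17, 70 and 57 in non-responder, stable and anti-CTLA-4 minus control. The covariate gave 6 in responder minus non-responder and 0 in responder minus stable, and leaving out responders 1 and 4 gave 8 there (chosen after seeing the data).

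For constant region and B-lineage genes called, responder minus non-responder gave 0 with a 2-fold change, and 4 with the covariate and with only the groups compared. Responder minus stable gave 0, 0 with the covariate, 2 without responders 1 and 4 and 7 by DESeq2. Stable minus non-responder gave 0 with a 2-fold change and 5 with no filter, and non-responder minus control 2 and 12. A 2-fold change gave 24 in stable and 17 in anti-CTLA-4 minus control, and the stricter filter gave 21, 22 and 22 in responder, stable and anti-CTLA-4 minus control.

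Segments with at least 3 counts were 27.4 in controls, 59.5 in non-responders and 86.2 in stable tumours, and with at least 10 counts 6.0, 22.8 and 45.8, and 21.1 in responders. Thinned to 100 they were 36.1, 32.6 and 30.5 in non-responders, stable tumours and responders, and to 300, 61.7 and 57.0 in the first and second of these. Effective number by family was 8.63 in controls. In responder minus stable, the sign turned for Igkc with the covariate (0.23) and for Igkv14-111 with it (1.38) and without responders 1 and 4 (0.27). The cause was not tested.

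Leaving out 1 tumour, V segments called ranged from 6 to 13, 9 to 19, 7 to 18, 27 to 37, 29 to 49, 3 to 11 and 28 to 42 (responder minus non-responder, responder minus stable, stable minus non-responder, then responder, stable, non-responder and anti-CTLA-4 minus control), constant region and B-lineage genes from 7 to 14, 2 to 9, 2 to 10, 35 to 40, 34 to 39, 9 to 24 and 35 to 41, and Igkv14-111 in responder minus stable from -0.95 to 1.08. Mean summed levels ranged from 6.67 to 13.0, 54.7 to 65.5, 180 to 267 and 94.9 to 151 CPM in controls, non-responders, stable tumours and responders, detected segments from 50.3 to 64.5, 92.0 to 99.2, 110 to 120 and 72.1 to 88.6, and effective numbers from 22.6 to 28.6, 12.9 to 18.5, 8.10 to 10.7 and 10.7 to 13.9.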
